A study of Mus musculus with 15 samples.

Results

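Mouse embryonic stem cells cultured with PD032 alone were compared with the same cells cultured with an inhibitor of Aurora kinase A alone, written Aurka inh in the labels. The comparison used the 3 libraries of each condition, 6 of the 15 libraries in the series, and all genes of the count table. All cells were wild-type E14, an established mouse embryonic stem cell line, and before the experiment their medium held Lif at 4 ng/ml, CHIR99021 at 3 µM and PD0325901 at 0.4 µM. They were embedded in growth factor reduced Matrigel, a basement membrane gel, at 2000 cells per µl under N2B27, a serum-free medium, with the inhibitor added, and poly(A) RNA was sequenced. What PD032 stands for is not spelled out in the labels, nor which Aurora compound was used, and doses and durations of both inhibitors are missing from them. No condition had N2B27 without an added inhibitor or factor, so which inhibitor moved a gene cannot be told apart within the comparison. Another condition received both (PD032+ Aurka inh, called the combination), and its 3 libraries are given beside the others where they help to place a value.

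PD0325901, the compound of the maintenance medium, blocks MEK, the kinase that activates ERK downstream of the FGF receptor. ERK signalling moves mouse embryonic stem cells out of the naive state, and its activity is read from target genes that feed back on the pathway, such as the Sprouty and dual-specificity phosphatase genes. CHIR99021 blocks GSK3 and so stabilises β-catenin, which drives Wnt target genes such as Axin2 and Sp5 through TCF factors. Aurora A is a mitotic kinase of centrosomes and the spindle, and its partners include TPX2, Bora and Ajuba.

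PD032 libraries held 18421904 to 22683616 counts, Aurka inh libraries 16010904 to 21691325, and combination libraries 19304585 to 24202544. Of 49585 genes in the table, 14837 had enough counts to be tested. Levels are counts scaled to library totals adjusted by TMM factors (CPM) and are listed for replicates 1, 2 and 3 in that order. Differences are log2 fold changes of PD032 over Aurka inh. Adjusted p-values come from the quasi-likelihood test of edgeR, with a gene passing under 0.05. The standard error (SE) is approximate, being the size of the log2 difference divided by the square root of that test's F statistic. For genes with few counts in a group, such as Spry4, Foxd4 and T, it can be smaller than counting error alone. Replicates may be technical, since nothing says that they came from separate cultures, so a p-value reflects only how much these libraries vary. In bulk RNA, fewer cells of a type and less RNA per cell cannot be told apart.

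The libraries numbered 2 stood apart in each inhibitor condition. On principal component 3 of the 9 inhibitor libraries, which held 8.6% of the variance, they lay at -24.7, -27.1 and -15.6, and the other 6 libraries lay between 1.86 and 20.2. Component 1, with 53.1%, separated PD032 (52.7 to 60.6) from Aurka inh (-33.6 to -16) and the combination (-38.7 to -33.6). On component 2, with 27.2%, Aurka inh (23.3 to 49.5) lay above PD032 (-16.3 to -1.45) and the combination (-38.8 to -26.7). Libraries numbered 2 deviated together (r = 0.503 across genes between PD032 and Aurka inh), and those numbered 1 also matched each other best (0.355). Matching of number 3 was less clear, as PD032 replicate 3 correlated slightly more with Aurka inh replicate 1 (0.239) than with replicate 3 (0.217). Values with replicate number as a block are given where they change the call of a gene named here or move a count by over 1.5 times. The block takes all equal numbers as pairs, which the labels do not state. The same holds for counts without the libraries numbered 2, and smaller moves of a count are not listed.

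In all, 5719 genes passed, 38.5% of those tested. Among them 3237 (21.8%) were higher and 2482 (16.7%) lower in PD032, and 1132 (7.63%) and 515 (3.47%) differed at least 2-fold. The shares of 21.8% and 16.7% are the background for the list counts below that come from this fit. List counts from other fits have their own background. With the replicate block 4615 were higher and 4033 lower of 14837 genes. Without the libraries numbered 2, 3903 were higher and 3124 lower of 15040 genes. Most differences were small: the median fold of the genes that passed was 1.65 for the higher and 1.34 for the lower genes. At the far end, 46 genes were at least 16-fold higher and 45 at least 16-fold lower. The median log2 difference over all genes tested was 0.012, and the 3 PD032 libraries lay wholly above the 3 Aurka inh libraries for 3971 genes (26.8%) and wholly below for 3236 (21.8%).

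**Figure D1:**
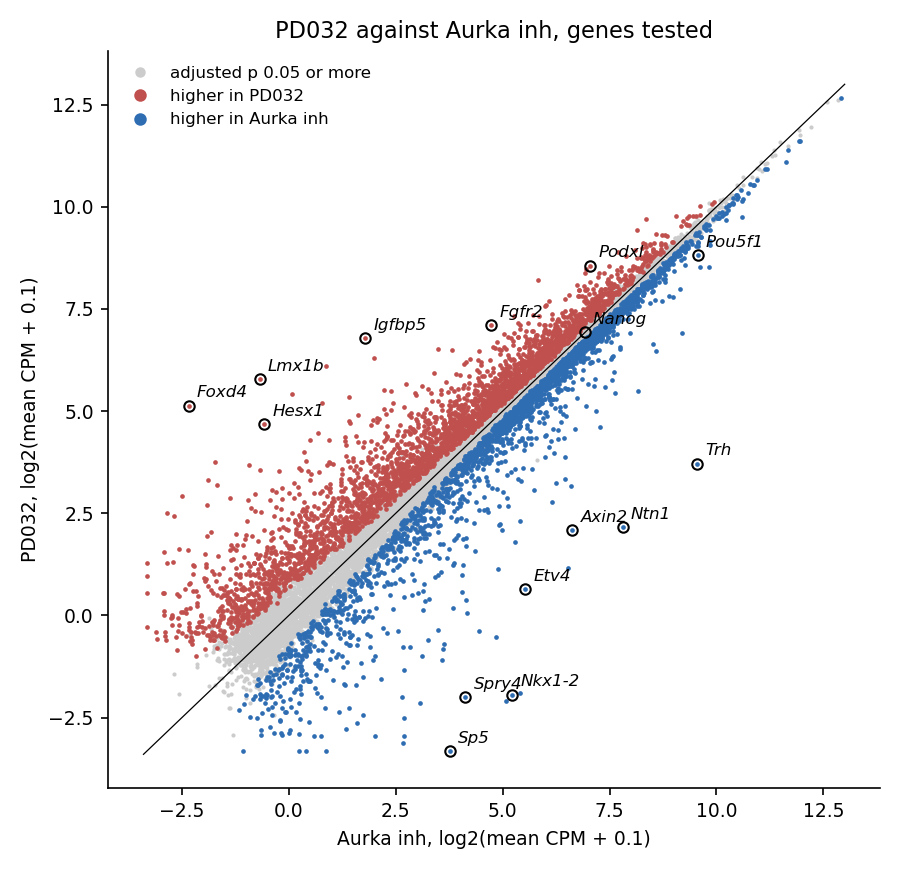
Each point is a gene tested; the axes give log2 of mean CPM plus 0.1 in Aurka inh (x) and PD032 (y), 3 libraries each, and the line marks equal levels. Red points (3237) passed and were higher in PD032, blue points (2482) passed and were higher in Aurka inh, and named genes are circled, with Foxd4 and Lmx1b far above the line and Sp5, Nkx1-2 and Spry4 far below it.

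The shares by gene type differed. Of 13013 protein-coding genes tested 23.9% were higher and 17.7% lower, and of 701 pseudogenes 2.43% and 6.85%. The median log2 difference of the genes on a chromosome lay between -0.05 and 0.07 for chromosomes 1 to 19 and was -0.02 for X.

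Genes of the ERK response were lower in PD032. Of 20 ERK feedback inhibitors and targets, all tested, 12 were lower, 1 was higher and 7 did not pass, with a median log2 difference of -0.84 against 0.012 over all genes. With the block, and also without the libraries numbered 2, 2 were higher. Etv4 (ENSMUSG00000017724), an ETS factor induced by FGF signalling, spans 101769742 to 101785371 on chromosome 11 of mm10. It measured 1.39, 1.72 and 1.26 CPM in PD032 and 44.3, 49.4 and 44.2 CPM in Aurka inh, and 3.95, 4.05 and 3.97 CPM in the combination. Its PD032 libraries lay far below the Aurka inh libraries with no overlap, a log2 difference of -4.99 (SE 0.12, edgeR adjusted p = 2.2e-09). Spry4, which restrains receptor tyrosine kinase signalling, measured 0.139, 0.268 and 0.0434 CPM in PD032, 16, 19.7 and 16.4 CPM in Aurka inh and 0.46, 0.737 and 0.753 CPM in the combination. That was 117-fold lower in PD032 (log2 -6.87, SE 0.30, edgeR adjusted p = 1.1e-07), or -7.51 on the log2 scale without PD032 replicate 2.

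Of the 3 phosphatase genes on the list, Dusp4 and Dusp6 were lower and Dusp5 higher. Dusp4 measured 6.61, 6.55 and 7.12 CPM in PD032 against 79.5, 55.5 and 77.4 CPM in Aurka inh, 10.5-fold lower (edgeR adjusted p = 5.7e-07). Dusp6, which dephosphorylates ERK, measured 10.5, 13.9 and 11.8 CPM against 45, 48.2 and 39.4 CPM, and 11.9, 11.6 and 11.7 CPM in the combination. For Dusp6 the libraries with PD032, alone or combined, overlapped each other and lay below every Aurka inh library (log2 -1.87, SE 0.11, edgeR adjusted p = 7.3e-07). Dusp5 had 9.34, 6.23 and 9.86 CPM in PD032 and 5.13, 4.59 and 4.96 CPM in Aurka inh (edgeR adjusted p = 0.0075).

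Other members that passed covered a wide range of sizes. Etv1 was 4.81-fold lower in PD032, Myc 4.11-fold, the ephrin receptor gene Epha2 3.53-fold, Spred1 3.5-fold, Spry2 2.06-fold, Etv5 1.55-fold and Ccnd1, the cyclin D1 gene, 1.32-fold.

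The immediate early genes Egr1 and Fos did not pass. Egr1 measured 14.8, 0.644 and 26.5 CPM in PD032, 80.4, 24.3 and 62.6 CPM in Aurka inh, and 45.9, 0.789 and 41.2 CPM in the combination. In each condition the library numbered 2 was the lowest, and the PD032 and Aurka inh libraries overlapped by 1 library of each (log2 -1.98, SE 1.00, edgeR adjusted p = 0.14). With the block the Egr1 difference had an adjusted p of 3.5e-05, and without the libraries numbered 2 of 1.2e-05, both in edgeR and both lower in PD032. Fos measured 10, 1.5 and 14.9 CPM in PD032 and 6.01, 0.574 and 4.69 CPM in Aurka inh, higher in PD032 within each pair of equal number, with an edgeR adjusted p of 0.3, and of 9.3e-05 with the block.

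The genes that carry the FGF signal to ERK did not share this direction. Of 20 components tested 7 were higher and 3 lower, beside 21.8% and 16.7% over all genes. The other 10 did not pass (12 higher with the block), and the median log2 difference was 0.15. The receptor gene Fgfr2 measured 143, 122 and 147 CPM in PD032 and 27.2, 27.6 and 24.2 CPM in Aurka inh, with no overlap. It was 5.21-fold higher in PD032 (log2 2.38, SE 0.14, edgeR adjusted p = 5.7e-07). Fgfr1 was 1.58-fold higher, and Fgf4, the ligand that embryonic stem cells make themselves, 2.02-fold higher. Mapk3, which encodes an ERK kinase, was 1.24-fold higher.

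**Figure D2:**
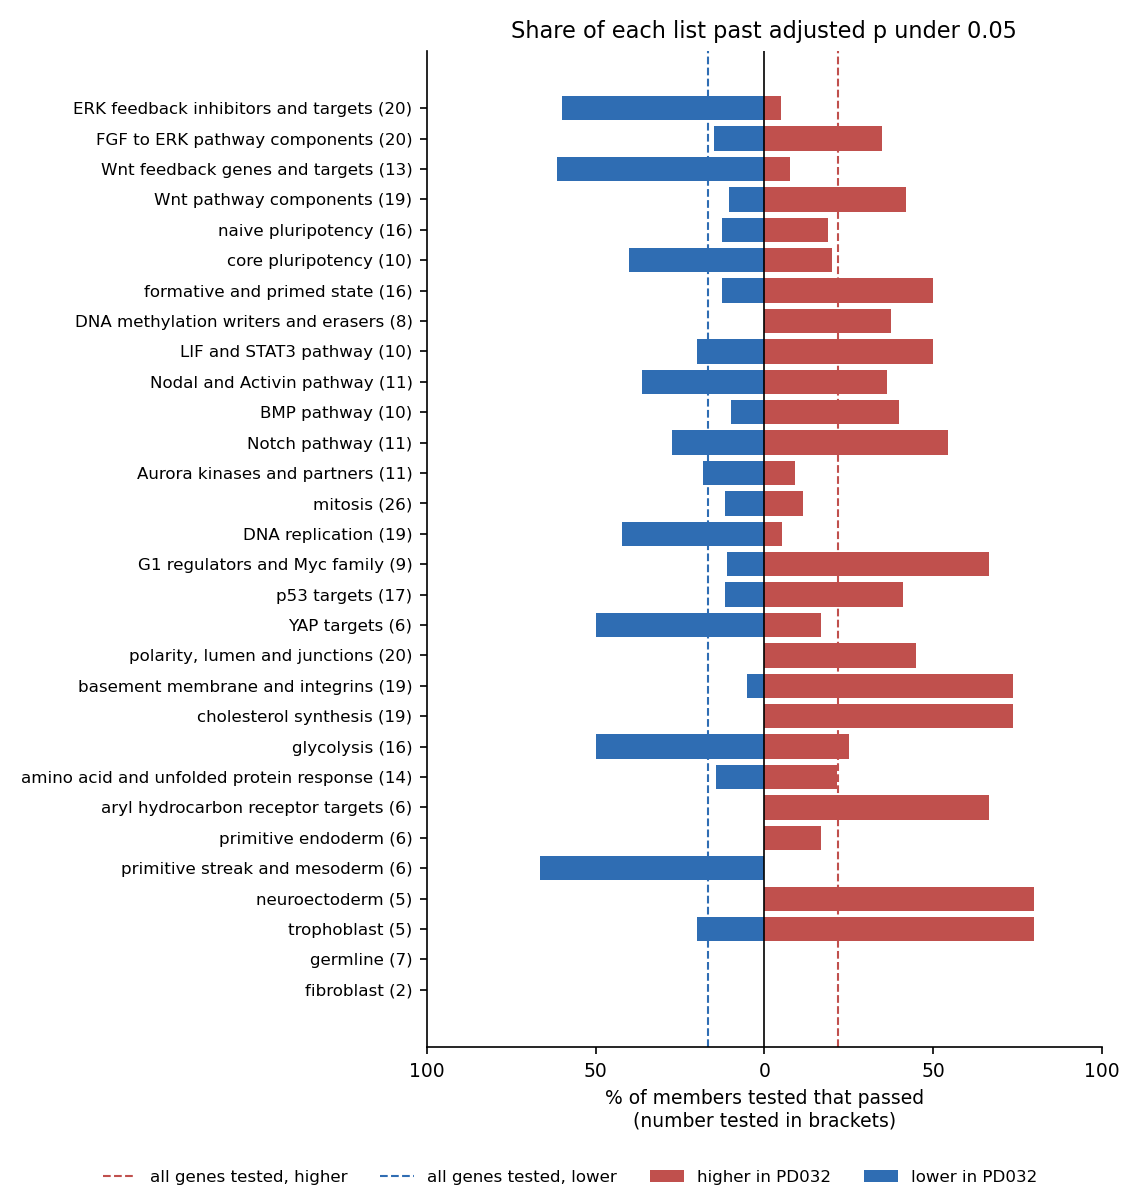
Bars give the percentage of each list's tested members (number in brackets) that passed and were higher (red, right) or lower (blue, left) in PD032, and dashed lines give the same shares over all 14837 genes tested, 21.8% higher and 16.7% lower. ERK and Wnt targets and streak genes extend left, and cholesterol synthesis, basement membrane and neuroectoderm genes extend right.

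Wnt target genes were lower in PD032 as well. Of 16 Wnt feedback genes and targets 13 were tested, of which 8 were lower, 1 was higher and 4 did not pass (2 higher with the block, without the libraries numbered 2 and without Aurka inh replicate 2), with a median log2 difference of -0.81. Sp5 and Axin2 are established targets of β-catenin, and the 250 bases before their starts are shown because TCF factors bind motifs of the form CTTTGA. Sequences are RefSeq promoters on GRCm38.p6, plus strand, chr2:70474673-70474922 for Sp5 and chr11:108920099-108920348 for Axin2, and capitals mark CTTTGA or its reverse complement TCAAAG.

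Sp5: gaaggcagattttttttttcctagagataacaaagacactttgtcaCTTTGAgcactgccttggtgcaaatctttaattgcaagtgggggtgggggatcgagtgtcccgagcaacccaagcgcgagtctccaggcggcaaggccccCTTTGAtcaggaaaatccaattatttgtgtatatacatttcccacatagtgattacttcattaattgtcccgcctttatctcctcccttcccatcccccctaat

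Axin2: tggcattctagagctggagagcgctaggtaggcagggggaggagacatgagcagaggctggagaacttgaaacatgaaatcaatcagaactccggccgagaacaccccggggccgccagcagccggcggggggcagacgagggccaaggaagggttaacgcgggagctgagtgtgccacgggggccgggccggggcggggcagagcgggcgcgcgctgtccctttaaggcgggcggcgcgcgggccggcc

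The Sp5 window held the motif at -204 and -104 bases from the start, and the Axin2 window held none. Over the list, 11 genes matched the promoter table with 19 promoters, of which 5 (26.3%) held the motif on either strand, those of Dkk1, Lef1, Sp5, Sp8 and Tnfrsf19, against 4544 of 32851 promoters of the same length (13.8%). Notum, Znrf3, Apcdd1, Lgr5 and Cdx1 were not in the table. For the ERK list the ETS motif CCGGAA or TTCCGG was in 0 of 14 promoters of 12 matched genes, against 3952 of the 32851. A match or its absence in this window is a description of the letters only.

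Sp5 (ENSMUSG00000075304, chromosome 2, 70474923 to 70477729 on mm10), a zinc finger factor that represses Wnt targets in turn, had 0 counts in each PD032 library. It measured 13, 13 and 14.3 CPM in Aurka inh and 4.46, 3.42 and 4.81 CPM in the combination. With 757 counts against 0, it was at least 284-fold lower in PD032, taking 3 counts over the group as the limit of a count of 0 (edgeR adjusted p = 2.7e-07). Axin2 (ENSMUSG00000000142, chromosome 11, 108920349 to 108950783), which promotes β-catenin destruction, measured 4.71, 4.24 and 3.47 CPM in PD032, 102, 101 and 93.2 CPM in Aurka inh and 79.7, 83 and 78.3 CPM in the combination. PD032 alone was the low condition, 23.9-fold below Aurka inh (log2 -4.58, SE 0.10, edgeR adjusted p = 1.1e-09), while every library with the Aurora inhibitor lay above 78 CPM.

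Sp8, a relative of Sp5, measured 1.25, 1.34 and 1.56 CPM in PD032 and 16.8, 13 and 19.9 CPM in Aurka inh, 11.9-fold lower. Tnfrsf19, another β-catenin target, measured 27.2, 29 and 31.6 CPM against 93.6, 86.9 and 87 CPM, 3.05-fold lower. Tcf7, a TCF factor, was 1.84-fold lower and the receptor ubiquitin ligase gene Znrf3 1.67-fold. Lef1, also a TCF factor gene, overlapped between the conditions, with 53.8, 51.9 and 56.1 CPM against 48.7, 62.9 and 55 CPM (edgeR adjusted p = 0.75), and was at 13.9, 13.4 and 14.3 CPM in the combination. Notum, a secreted Wnt inhibitor, was the member that passed in the other direction, with 20.9, 21.7 and 17.4 CPM in PD032 and 11.5, 17.4 and 11.6 CPM in Aurka inh, so that replicate 3 of PD032 and replicate 2 of Aurka inh met. Its edgeR adjusted p was 0.013, and the call was lost without Aurka inh replicate 3 (0.059) or PD032 replicate 1 (0.052). The labels give CHIR99021 for the maintenance medium and for no inhibitor condition by name.

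Components of the Wnt pathway leaned the other way. Of 19 tested 8 were higher, 2 lower and 9 did not pass, with a median log2 difference of 0.30, and 13 were higher both with the block and without the libraries numbered 2. Porcn, which acylates Wnt proteins for secretion, was lower, with 1.57, 1.77 and 2.3 CPM in PD032 and 16.2, 17.4 and 15.8 CPM in Aurka inh (log2 -3.12, SE 0.14, edgeR adjusted p = 1.4e-07). The combination, at 17.4, 15.3 and 15.8 CPM, overlapped with Aurka inh for Porcn. Tcf7l2 was 2.25-fold higher in PD032, the receptor genes Fzd2 and Fzd5 1.75-fold and 1.67-fold, and Ctnnb1, the β-catenin gene, 1.28-fold. Gsk3a and Gsk3b did not pass (edgeR adjusted p = 0.12 and 0.061). With the block both passed, Gsk3a lower (0.02) and Gsk3b higher (1e-05), and Gsk3b also without the libraries numbered 2 (0.0028).

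**Figure D3:**
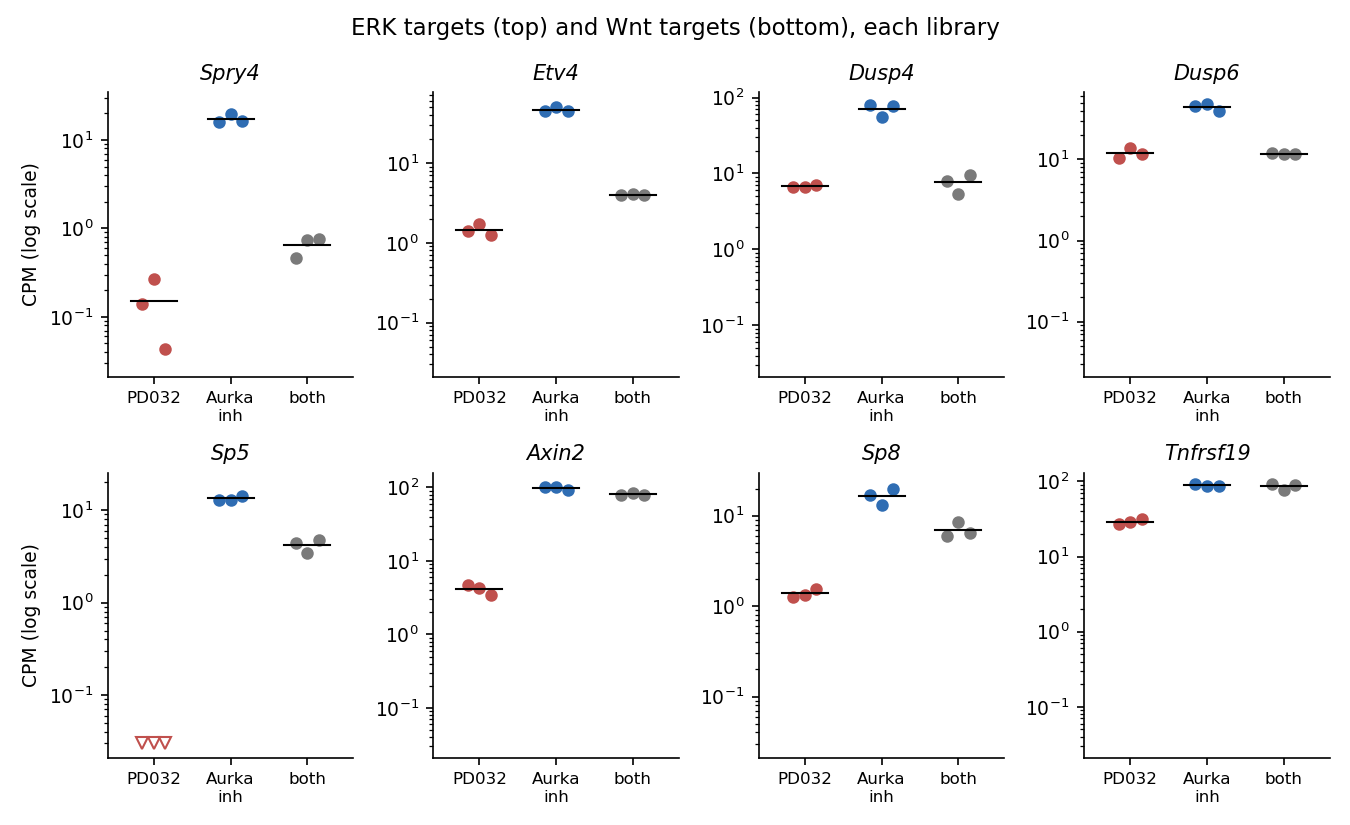
CPM on a log scale for 4 ERK targets (top) and 4 Wnt targets (bottom) in PD032, Aurka inh and the combination ("both"); points are libraries, horizontal bars are means of 3, and open triangles mark libraries at 0 counts, drawn at 0.03 CPM. Dusp4, Dusp6, Etv4 and Spry4 are low wherever PD032 was present, and Axin2 and Tnfrsf19 are low in PD032 alone.

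Among the 8 genes named for the largest differences higher in PD032, 3 were homeobox or forkhead genes. Foxd4 (ENSMUSG00000051490, chromosome 19, 24899236 to 24901197), a forkhead factor of early neural ectoderm, measured 35.1, 28.1 and 42 CPM in PD032, 0.185, 0 and 0.106 CPM in Aurka inh and 0.138, 0.316 and 0.125 CPM in the combination. Its level was high in PD032 alone, 312-fold above Aurka inh (log2 8.29, SE 0.35, edgeR adjusted p = 8.1e-08), and its log2 difference was 9.10 without Aurka inh replicate 1. Lmx1b (ENSMUSG00000038765, chromosome 2, 33560965 to 33640511), a LIM homeobox factor of the midbrain and hindbrain border, measured 58.6, 46.8 and 59.8 CPM against 0.601, 0.702 and 0.264 CPM. Hesx1, a homeobox repressor of the forebrain and pituitary, measured 25.5, 23 and 28.3 CPM against 0.37, 0.766 and 0.58 CPM. Neither gene's libraries overlapped, with folds of 106 and 45.8.

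The other genes named for size in this direction were Pla2r1, a phospholipase receptor gene, 61.2-fold higher, Kbtbd11, 44-fold, Greb1l, 39.7-fold, Igfbp5, which binds insulin-like growth factors, 32.7-fold, and Fignl2, 29.7-fold. Greb1l measured 84, 38.5 and 83.1 CPM in PD032, with its lowest value in replicate 2, against 1.9, 1.79 and 1.48 CPM in Aurka inh.

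Genes lower in PD032 by the largest folds, beside Sp5 and Spry4, included Nkx1-2 and Wnt8a. Nkx1-2 (ENSMUSG00000048528, chromosome 7, 132594878 to 132599637), a homeobox gene of the caudal epiblast, measured 0.139, 0.215 and 0.13 CPM in PD032, 35.2, 41.4 and 35.2 CPM in Aurka inh and 41.1, 52.1 and 36.6 CPM in the combination. Wnt8a, a Wnt ligand of the same region, measured 0.601, 0.483 and 0.695 CPM, 28.6, 28.7 and 28 CPM, and 5.06, 5.31 and 7.03 CPM in those conditions. Nkx1-2 was therefore high in every library with the Aurora inhibitor, and Wnt8a highest with the Aurora inhibitor alone.

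Trh, which encodes thyrotropin-releasing hormone, measured 14, 10.8 and 14.4 CPM in PD032 and 758, 762 and 709.8 CPM in Aurka inh, 56.7-fold lower (edgeR adjusted p = 1.1e-09). Ntn1, a netrin gene, was 51-fold lower, Nt5e, whose product makes adenosine at the cell surface, 228-fold, and Pglyrp1, a peptidoglycan-binding protein gene, 235-fold. The log2 difference of Nt5e was -7.83, and -8.73 without PD032 replicate 3, and that of Pglyrp1 was -7.88, and -7.20 without the libraries numbered 2.

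Neuroectoderm markers were higher in PD032 where they passed. Of 8 neuroectoderm markers 5 were tested, of which 4 were higher in PD032 and 1, Nes, did not pass (lower with the block). Six3, of forebrain and eye, had 120 counts in PD032 (2.31, 1.29 and 2 CPM) and 0 in Aurka inh and in the combination, at least 35.5-fold higher than in Aurka inh (edgeR adjusted p = 0.00035). Pax6 measured 13, 7.25 and 14.5 CPM against 1.06, 0.702 and 0.475 CPM, and 5.06, 2.16 and 5.48 CPM in the combination. Sox1, an early neural factor, was 20-fold higher, with at most 2.4 CPM in PD032, and the Notch ligand gene Dll1 5.69-fold. Nes, the nestin gene, measured 37.1, 25.9 and 42.5 CPM against 40.8, 26.7 and 51.3 CPM, and Hes5 and Zic1 were at or below 0.158 CPM in all 6 libraries. The summed level of the list was 88.8 to 111 CPM in PD032 and 35.3 to 61.2 CPM in Aurka inh. Most of the difference in that sum came from Dll1, and most of the Aurka inh sum from Nes.

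Of 10 primitive streak and mesoderm markers 6 were tested, of which 4 were lower in PD032 and 2 did not pass. T, the brachyury gene, measured 0.0924, 0.107 and 0.174 CPM in PD032, 8.65, 6.96 and 9.39 CPM in Aurka inh and 0.919, 0.789 and 1.21 CPM in the combination (log2 -5.98, SE 0.29, edgeR adjusted p = 1.9e-07). The order of T, Aurka inh above the combination above PD032, held for every library. Evx1, a homeobox gene of the posterior streak, had 79 counts in Aurka inh and 2 in PD032, a count ratio of 44.4 (95% exact interval 11.9 to 373, counting error only). Snai1, a repressor of epithelial genes, was 2.33-fold lower. Wnt3, a Wnt ligand gene, had 6 counts in PD032 and 125 in Aurka inh, and its log2 difference of -4.43 was -6.19 without PD032 replicate 1 and -3.83 without PD032 replicate 3. Eomes, needed for the streak and endoderm, did not pass, with 7.49, 10.4 and 9.33 CPM against 9.53, 10.3 and 11.5 CPM, and Mesp1, Mixl1, Gsc and Fgf8 were too low to test. Summed, the list reached 19.7 to 22.2 CPM in PD032 and 41.5 to 55.2 CPM in Aurka inh.

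**Figure D4:**
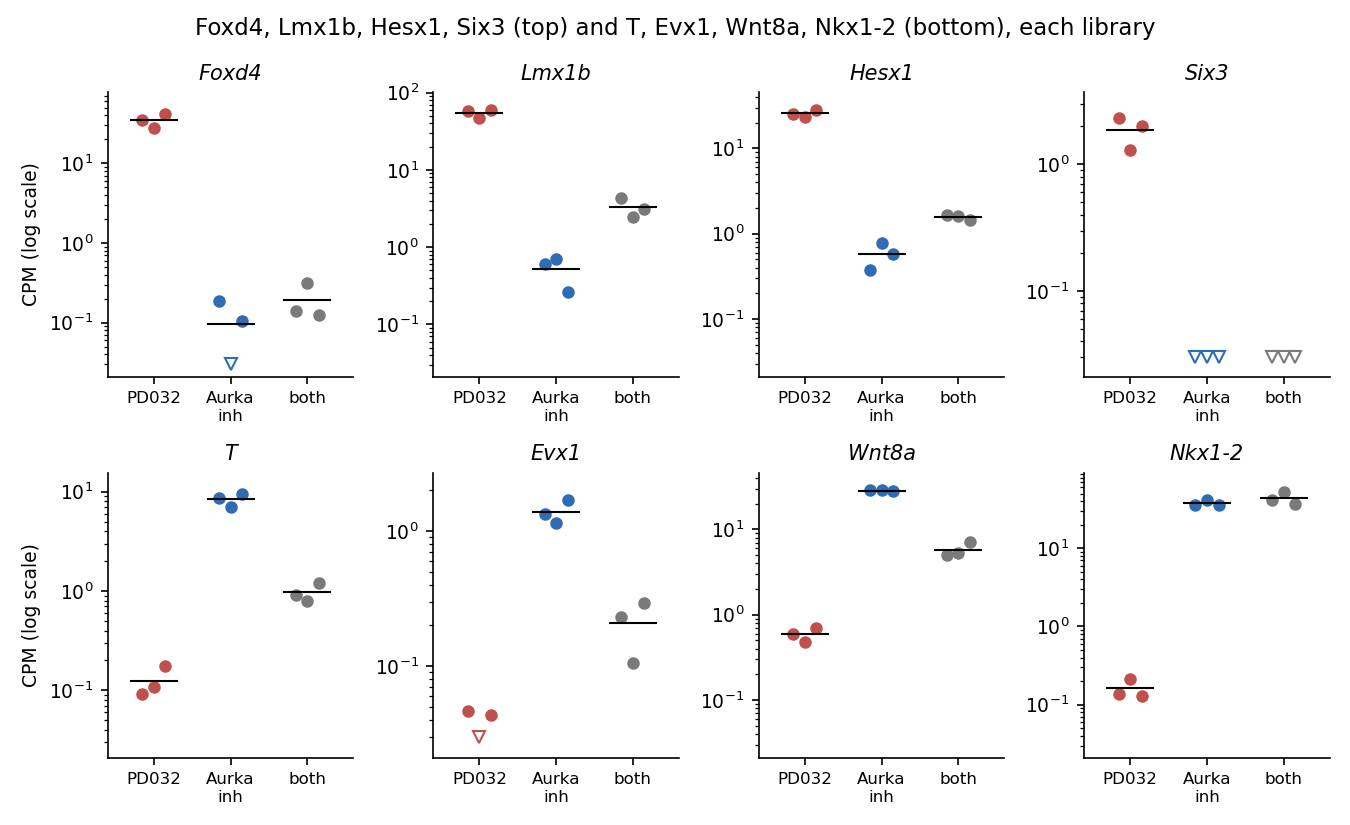
CPM on a log scale for Foxd4, Lmx1b, Hesx1 and Six3 (top) and T, Evx1, Wnt8a and Nkx1-2 (bottom) in PD032, Aurka inh and the combination ("both"); points are libraries, bars are means of 3, and open triangles mark 0 counts, drawn at 0.03 CPM. The top 4 genes are high in PD032 alone, and T, Evx1 and Wnt8a are highest in Aurka inh alone.

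Defining markers of embryonic stem cells were present in every library. Pou5f1 measured 411, 516 and 431 CPM in PD032 and 686, 817 and 759.7 CPM in Aurka inh, Sox2 measured 290.1, 325 and 291 CPM against 244, 342 and 215 CPM, and Sall4 313, 276 and 314 CPM against 236, 219 and 215 CPM. Pou5f1, the OCT4 gene, was 1.67-fold lower in PD032 with no overlap (edgeR adjusted p = 0.00036), and Sall4 1.35-fold higher. Of 10 core genes tested 2 were higher and 4 lower, beside 21.8% and 16.7% over all genes, and 4 did not pass (4 higher with the block and without the libraries numbered 2). Tdgf1, a co-receptor for Nodal, differed most among them, with 45.9, 41.2 and 42.3 CPM in PD032 and 192, 209 and 191 CPM in Aurka inh, 4.57-fold lower. Sox2 did not pass in the fit of all 9 libraries (edgeR adjusted p = 0.33), but was higher in PD032 with the block (0.026) and without Aurka inh replicate 2 (0.0032). Processed pseudogenes of Pou5f1 and Nanog exist, and reads shared with them could have been counted for either.

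Naive genes as a list showed little net difference between the single inhibitors. Of 16 tested 3 were higher in PD032, 2 lower and 11 did not pass, with a median log2 difference of 0.0035. Nanog measured 132, 119 and 115 CPM in PD032 and 114, 148 and 101 CPM in Aurka inh, and 391, 400.4 and 366 CPM in the combination (log2 0.02, SE 0.12, edgeR adjusted p = 0.92). Klf4 measured 14.7, 12 and 16.5 CPM, 17.4, 16.5 and 13.8 CPM, and 49.2, 47.4 and 48.9 CPM in those conditions, and Esrrb 185, 188 and 164 CPM, 154, 185 and 120.2 CPM, and 494, 452 and 462 CPM. For these transcription factors the single inhibitors overlapped, and all 3 combination libraries lay above both. The combination lay above every library of both single inhibitors for 15 of the 16 genes, Dppa3 being the exception, as against 1368 of all 14837 genes.

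Single members of the naive list differed in opposite directions. Tbx3 measured 4.44, 7.95 and 4.65 CPM in PD032 and 19.2, 38.2 and 18.3 CPM in Aurka inh, 4.45-fold lower, and the nuclear receptor gene Nr5a2 was 1.5-fold lower. Prdm14, which represses FGF receptor genes and DNA methyltransferases, measured 7.44, 6.44 and 6.3 CPM against 1.94, 3.06 and 0.739 CPM, 3.59-fold higher. Nr0b1 was 2.87-fold higher, with 54.4, 77.2 and 54.1 CPM against 18, 32.5 and 14.6 CPM.

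The count of naive genes higher in PD032 depended on the libraries numbered 2. It was 6 without Aurka inh replicate 2, 8 without all 3 libraries numbered 2, 6 with the block and 5 with no filter on low counts, while 4 genes were lower without Aurka inh replicate 3. Esrrb then passed, with edgeR adjusted p-values of 0.017 without Aurka inh replicate 2 and 0.011 with the block. The genes that joined without the libraries numbered 2 were Esrrb, Nanog, Zfp42, Zfp57 and Tcl1, all higher in PD032, and the largest of these log2 differences was 0.47.

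Genes of the formative or primed state were higher in PD032. Of 16 tested 8 were higher, 2 lower and 6 did not pass (4 lower with the block), with a median log2 difference of 0.37. Fgf5, a growth factor gene of the epiblast after implantation, measured 19.2, 16.5 and 20.8 CPM in PD032, 2.77, 1.21 and 4.91 CPM in Aurka inh and 0.322, 0.21 and 0.335 CPM in the combination. The 3 conditions did not overlap for Fgf5, and PD032 was 6.25-fold above Aurka inh (log2 2.64, SE 0.32, edgeR adjusted p = 1e-04). Otx2, a homeobox factor of the formative and anterior epiblast, measured 231, 223 and 219 CPM against 105, 107 and 111 CPM, and 53, 55.4 and 53.2 CPM in the combination (log2 1.06, SE 0.05, edgeR adjusted p = 2.1e-07).

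Sox3 was 4.35-fold higher in PD032, Sall2 3.96-fold, Pou3f1 2.38-fold and the carbonic anhydrase gene Car4 5.54-fold. The 2 members that were lower were Grhl2, an epithelial factor, 1.85-fold, and Foxd3, 1.78-fold. In 11 of the 16 genes the combination lay below every library of both single inhibitors, as against 1504 of all 14837 genes.

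**Figure D5:**
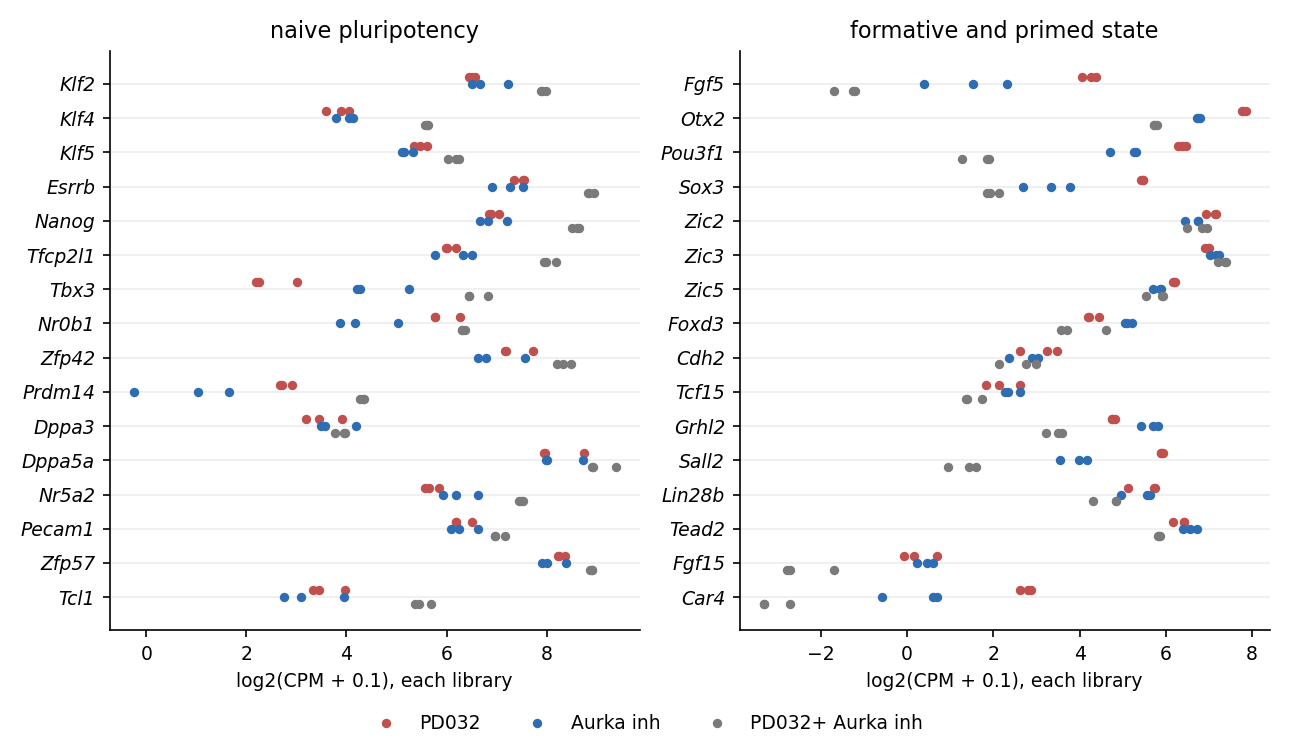
Each point is a library; the x axes give log2 of CPM plus 0.1 for the 16 naive genes (left) and 16 formative or primed genes (right) in PD032 (red), Aurka inh (blue) and PD032+ Aurka inh (grey). Red and blue overlap for most naive genes while grey lies to the right, and for Fgf5, Pou3f1, Sox3 and Sall2 the order from the right is red, blue, grey.

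Of 8 genes that write or erase DNA methylation 3 were higher in PD032 and 5 did not pass (6 higher and 2 lower with the block, 2 lower without the libraries numbered 2, and 1 lower without replicate 2 of PD032 or of Aurka inh). The genes of the oxidising enzymes Tet1 and Tet3 were 1.79-fold and 2.07-fold higher. Dnmt3b, a methyltransferase gene of the formative state, measured 1802, 1544 and 1768 CPM in PD032, 1687, 1449 and 1628 CPM in Aurka inh and 851, 716 and 815 CPM in the combination, so the single inhibitors overlapped (edgeR adjusted p = 0.38, and 0.0033 with the block).

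Nodal pathway genes differed in both directions. Of 13, 11 were tested, of which 4 were higher and 4 lower, beside 21.8% and 16.7% over all genes, and 3 did not pass. Among the lower members the ligand gene Nodal measured 22.8, 28.8 and 21.4 CPM in PD032 and 157, 150 and 159.7 CPM in Aurka inh (log2 -2.68, SE 0.12, edgeR adjusted p = 1.4e-07), and the genes of the inhibitors Lefty1, Lefty2 and Smad7 were 6.08-fold, 3.84-fold and 3.16-fold lower. The 4 higher members were Smad3, 1.82-fold, its partner gene Foxh1, 1.37-fold, the ligand gene Gdf3, 1.25-fold, and the receptor gene Acvr1b, 1.21-fold. Nodal libraries did not overlap, and the combination lay between, at 94.7, 115 and 90.8 CPM.

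Of 12 BMP pathway genes 10 were tested, with 4 higher, 1 lower and 5 not passing (7 higher with the block). The inhibitors of differentiation moved apart: Id1 measured 7.16, 7.68 and 9.33 CPM in PD032 and 1.85, 1.91 and 1.74 CPM in Aurka inh, and Id2 was 4.26-fold higher, whereas Id3 measured 25.7, 30.1 and 30 CPM against 62.2, 62.9 and 58 CPM. Bmp4 was 2.06-fold higher in PD032.

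Notch pathway genes were mostly higher in PD032, with 6 of 11 higher, 3 lower and 2 not passing, and a median log2 difference of 1.04. The receptor genes Notch1 and Notch2 were 2.06-fold and 2.15-fold higher, and the ligand genes Dll3 and Dll4 3.31-fold and 5.31-fold. The ligand gene Jag1 was lower, with 13.2, 9.61 and 12.9 CPM in PD032 and 40.7, 40.3 and 36 CPM in Aurka inh. Among targets, Hes1 was 1.85-fold lower and Hey2 3.41-fold higher, at no more than 1.17 CPM. Hey1 was 1.82-fold lower (edgeR adjusted p = 0.033), a call lost without Aurka inh replicate 1 or 3 (0.062 and 0.14) and without PD032 replicate 1, 2 or 3 (0.056, 0.073 and 0.082).

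Of 10 LIF and STAT3 genes 5 were higher and 2 lower, beside 21.8% and 16.7% over all genes, and 3 did not pass. Without the libraries numbered 2, 8 of the list were higher. Socs3, the feedback inhibitor of the pathway, measured 4.95, 1.5 and 6.08 CPM in PD032 and 3.01, 2.23 and 3.11 CPM in Aurka inh, with replicate 2 the lowest in both. It did not pass (edgeR adjusted p = 0.27), and had adjusted p-values of 0.0058 without PD032 replicate 2 and 0.043 with the block. Il6st, the shared receptor gp130, was 1.39-fold lower and Stat3 1.37-fold higher.

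Aurora kinase genes and mitotic genes differed little. Aurka, the gene of the targeted kinase, measured 163, 174 and 156 CPM in PD032, 194, 202 and 210.4 CPM in Aurka inh and 181, 184 and 179 CPM in the combination. It was 1.23-fold lower in PD032 with no overlap (log2 -0.30, SE 0.06, edgeR adjusted p = 0.0021). Since an inhibitor of a kinase need not change the RNA of that kinase, the level of Aurka does not check the labels. Of 11 Aurora genes and partners tested 1 was higher, 2 lower and 8 did not pass (2 higher and 6 lower with the block). Ajuba, whose LIM protein activates Aurora A, was the higher gene, with 297, 267 and 290.5 CPM in PD032 and 178, 162 and 177 CPM in Aurka inh, and Bora was 1.22-fold lower. Aurkb, Tpx2 and Plk1 did not pass (edgeR adjusted p = 0.59, 0.15 and 0.2), and with the block Plk1 passed as lower (log2 -0.08, adjusted p = 0.04) and Tpx2 as higher (log2 0.10, adjusted p = 0.013).

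Of 26 mitosis genes 3 were higher, 3 lower and 20 did not pass, with a median log2 difference of -0.04. The block gave 6 higher and 9 lower, 5 were lower without the libraries numbered 2, and without PD032 replicate 1 or 3 the higher genes numbered 1 and 0. The differences were small, with Prc1, which bundles spindle microtubules, 1.23-fold higher, Kif20a, a kinesin of cytokinesis, 1.21-fold lower and Mad2l1, of the spindle checkpoint, 1.18-fold lower. Prc1 lost its call without PD032 replicate 3 (edgeR adjusted p = 0.068). Mki67, the Ki-67 gene, measured 421, 378 and 436 CPM in PD032 and 422, 389 and 406 CPM in Aurka inh (log2 0.02, SE 0.07, edgeR adjusted p = 0.83).

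DNA replication genes leaned lower in PD032 by small folds. Of 19 tested 8 were lower, 1 was higher and 10 did not pass (12 lower and 2 higher with the block), with a median log2 difference of -0.13. Pcna, the polymerase clamp gene, measured 301, 304 and 293 CPM against 383, 373 and 385 CPM, 1.27-fold lower, and Ccne2, a cyclin E gene, was 1.58-fold lower. Of 9 regulators of G1 and the Myc family 6 were higher and 1 lower. Cdkn2a, whose locus encodes an inhibitor of cyclin D kinases, was 2.17-fold higher, the cyclin D3 gene Ccnd3 1.79-fold and the retinoblastoma gene Rb1 1.54-fold. Ccnd2, the cyclin D2 gene, was the lower one, and lost its call without Aurka inh replicate 1 (edgeR adjusted p = 0.058) or 3 (0.068).

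Among 17 p53 targets 7 were higher, 2 lower and 8 did not pass (5 lower with the block). The 2 lower genes had the largest differences. Pmaip1, which encodes the death-promoting protein NOXA, measured 7.77, 9.83 and 10.3 CPM in PD032, 71.6, 90.2 and 65.3 CPM in Aurka inh and 10.6, 11.5 and 11.9 CPM in the combination (log2 -3.02, SE 0.14, edgeR adjusted p = 1.7e-07). Cdkn1a, the p21 gene, measured 64.1, 61.4 and 62.3 CPM, 197, 185 and 201 CPM, and 139.8, 154 and 133 CPM in those conditions (log2 -1.64, SE 0.07, edgeR adjusted p = 6.9e-08). So Pmaip1 was high with the Aurora inhibitor alone, and for Cdkn1a the combination lay between the single inhibitors. The higher members included Btg2, 2.28-fold, Trp53inp1, 1.71-fold, and Mdm2, which restrains p53, 1.19-fold.

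Genes for epithelial polarity, lumen and junctions were higher in PD032 where they passed. Of 20 tested 9 were higher and 11 did not pass (2 lower with the block and without the libraries numbered 2, and 1 lower without Aurka inh replicate 2), with a median log2 difference of 0.25. Podxl, which coats the apical surface and opens lumens, measured 405, 327 and 398 CPM in PD032, 159, 87.2 and 151 CPM in Aurka inh and 35.7, 18.7 and 34.1 CPM in the combination. Podxl levels did not overlap between the conditions, though replicate 2 was the lowest in each (2.83-fold higher in PD032 than in Aurka inh, edgeR adjusted p = 0.00079). The claudin gene Cldn4 was 2.2-fold higher, the apical polarity gene Crb3 1.98-fold and Pard6b 1.5-fold, while Cdh1, the E-cadherin gene, and the junction gene Tjp1 did not pass (edgeR adjusted p = 0.11 and 0.33). With the block both were higher (0.0085 for Cdh1 and 9.9e-06 for Tjp1), and Tjp1 was also higher without the libraries numbered 2 (0.0045). The claudin genes Cldn3, Cldn6 and Cldn7 did not pass. The genes lower with the block were Cldn3 (edgeR adjusted p = 0.034) and Cldn6 (0.0044). Those lower without the libraries numbered 2 were Cldn6 (edgeR adjusted p = 0.00016) and Cldn7 (0.0053).

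Among genes of the basement membrane and its integrin receptors, 14 of 19 tested were higher, 1 was lower and 4 did not pass (3 lower with the block, 2 without the libraries numbered 2 or without Aurka inh replicate 2). The median log2 difference was 0.76. Laminin and nidogen genes differed by member: Lama1 measured 19.4, 16.4 and 21.5 CPM in PD032 and 6.47, 6.96 and 4.64 CPM in Aurka inh, 3.18-fold higher, and Nid1 was 2.77-fold higher. Lama5 was the lower gene, with 234, 153 and 216 CPM against 413, 249 and 379 CPM. Perlecan (Hspg2) was 3.16-fold higher, Sparc 2.52-fold, and the integrin genes Itga6 and Itga5 2.17-fold and 2.03-fold. Of the 6 genes tested on the YAP target list 3 were lower and 1 higher, with Lats2 3.2-fold and Ccn2 1.88-fold lower and Amotl2 1.44-fold higher. Ccn1 and Tead1 did not pass, also with the block (log2 0.0056 and -0.0091, edgeR adjusted p = 0.98 and 0.9).

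Cholesterol synthesis genes were higher in 14 of 19 cases and 5 did not pass (1 lower with the block, without the libraries numbered 2 and without Aurka inh replicate 2), with a median log2 difference of 0.38. Hmgcs1, an early enzyme, measured 892, 852 and 889.9 CPM in PD032 and 552, 499 and 538 CPM in Aurka inh, 1.66-fold higher (edgeR adjusted p = 4e-06). Srebf2, which drives the pathway's genes, was 1.58-fold higher, Fdft1 1.58-fold and Insig1 1.47-fold. The largest of these differences was under 2-fold.

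Glycolysis genes differed in both directions, with 4 of 16 tested higher and 8 lower. The glucose transporter genes Slc2a1 and Slc2a3 were 2.53-fold and 2.28-fold higher in PD032, Hk1, which phosphorylates glucose, 2.98-fold, and the phosphofructokinase gene Pfkp 1.35-fold, whereas Pfkl, of the same step, was lower (log2 -0.40, edgeR adjusted p = 0.029), a call lost without Aurka inh replicate 1 (0.074) or 3 (0.094) and without PD032 replicate 2 (0.071). Slc2a1 measured 902, 709 and 872 CPM in PD032 and 352, 292 and 338 CPM in Aurka inh. The lower genes included Pdk1, which restrains pyruvate dehydrogenase, at 199, 214 and 205 CPM against 424, 415 and 426 CPM, Ldha, 1.82-fold, Pgk1, 1.28-fold, and Eno1, 1.27-fold. Of 14 genes of the amino acid and unfolded protein responses 3 were higher and 2 lower, near the shares over all genes (21.8% and 16.7%). The counts were 7 and 5 with the block, 5 higher without the libraries numbered 2, and 1 lower without Aurka inh replicate 1 or 3. The median log2 difference of the list was 0.077, and Xbp1 differed most, 1.56-fold higher.

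The aryl hydrocarbon receptor senses foreign compounds, and its list held 6 genes, the receptor gene Ahr and targets. Of these 4 were higher, including Ahr itself (log2 0.64, edgeR adjusted p = 0.0041). The targets Ahrr and Tiparp did not pass, with log2 differences of -0.0076 and -0.06 with the block. Cyp1a1 measured 30.5, 59.2 and 32.7 CPM in PD032, 1.71, 4.91 and 1.06 CPM in Aurka inh and 38.2, 95.5 and 35.3 CPM in the combination. The oxidase gene was thus high in every library that received PD032, and highest in the library numbered 2 of each condition (log2 4.06, SE 0.57, edgeR adjusted p = 0.00032), and its log2 difference was 4.85 without Aurka inh replicate 2. Cyp1b1 was 8.17-fold higher, at no more than 1.23 CPM. Nqo1 measured 70, 135 and 69.2 CPM against 32, 63.6 and 29.6 CPM, again with replicate 2 highest (edgeR adjusted p = 0.028), and lost its call without PD032 replicate 2 (0.098) and without Aurka inh replicates 1 (0.088) or 3 (0.11).

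Markers of other cells were low in both conditions. Primitive endoderm genes summed to 4.95 to 5.59 CPM in PD032 and 2.49 to 3.65 CPM in Aurka inh over 9 genes. Gata6 did not exceed 0.434 CPM and Sox17 0.508 CPM in these 6 libraries, and of 6 tested Cubn alone passed, higher in PD032 (2 genes with the block, without Aurka inh replicate 2 and without PD032 replicate 3). Trophoblast markers summed to 18.4 to 19.4 CPM in PD032 and 6.51 to 8.74 CPM in Aurka inh over 7 genes, most of it from Krt18, Krt8 and Krt7, which other epithelia also express. Those 3 genes were 2.22-fold, 4.25-fold and 4.47-fold higher in PD032, whereas Cdx2 had 2 counts in PD032 and 62 in Aurka inh, a count ratio of 34.9 (95% exact interval 9.26 to 294), and Elf5 and Hand1 did not exceed 0.185 CPM. Gata3, at no more than 0.74 CPM, was higher with an edgeR adjusted p of 0.012, lost without Aurka inh replicate 1 or 3 (0.053 for each), and its log2 difference of 1.89 was 2.57 without Aurka inh replicate 2.

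Germline markers summed to 57.7 to 79.9 CPM and 59.5 to 65.5 CPM, and of 7 tested 0 passed in edgeR, with 1 under an unadjusted p of 0.05, 0 passing in DESeq2 and 1 in limma (1 higher and 1 lower with the block, 1 higher without the libraries numbered 2 or Aurka inh replicate 2, and 1 lower without PD032 replicate 3 or combination replicate 1). The 7 markers of the 2-cell-like state were too low for the test, and 4 had 0 counts in both groups. Fibroblast markers summed to 10.8 to 14.5 CPM in PD032 and 13.1 to 20.9 CPM in Aurka inh, nearly all of it Thy1, with the collagen gene Col1a1 at or below 0.13 CPM. Thy1 did not pass (edgeR adjusted p = 0.074), but was lower in PD032 with the block (1e-04), without the libraries numbered 2 (0.0015) and without replicate 2 of Aurka inh or of the combination. The part that other cells had in the results was not tested.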

How the data were processed

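RNA-seq libraries from 3 replicates per condition were compared from a gene count table that the authors deposited as whole-number counts. The submitters' processing notes name STAR, mm10 and DESeq2. The authors also deposited normalized log2 values, used here in an alternative alone. For versions, counting tool, annotation and strand, the sources used here give nothing, so reads of antisense or overlapping genes may be included. Per the labels' protocols the library kit was directional.

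The 9 inhibitor libraries were fitted together in edgeR 4.0.16 (R 4.3.3): filterByExpr, TMM scaling, quasi-likelihood test, Benjamini-Hochberg adjustment over 14837 genes, threshold 0.05. They share one estimate of spread. The biological coefficient of variation was 9.25% for PD032, 11% for Aurka inh and 8.83% for the combination, against 4.53% for 2iLif and 1.76% for FGF2/Activin, which were left out because an earlier account of these data gave them a smaller spread. CPM are counts over TMM-scaled totals. GENCODE M21 gave symbols and positions for 49326 genes. Every replicate pair within the 2 groups differed by more than sampling noise (chi-squared per degree of freedom 2.58 to 18.5).

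Named genes were the 8 largest differences per direction (passed, mean of at least 10 CPM in the higher group, no overlap), up to 4 passing members of each list, and 22 fixed genes. Other members are named beside them, and these were chosen after their values were seen. The 31 lists (24 of pathways, 7 of cell markers) hold 416 genes. The comparison, members and lists were chosen with earlier results of these data known.

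Pairing was checked by correlating deviations from group means across genes, which are not independent replicates. Libraries of equal number had r = 0.355, 0.503 and 0.217, and others -0.426 to 0.239. PD032 replicate 3 correlated more with Aurka inh replicate 1 (0.239) than with Aurka inh replicate 3 (0.217). On simulated counts for this comparison (14837 genes) 50 genes were changed 1.5-fold, 50 changed 2-fold and 100 changed 4-fold. Of these 50%, 70% and 94% were recovered, and 14 of 14399 unchanged genes were called. Far fewer genes were changed there than the 5719 that passed in the data, which alters the adjustment of p-values. The simulated libraries were also drawn independently, without the shared deviation of equal numbers seen in the data. The recovered shares and the number of unchanged genes called therefore need not hold for the data. Alternatives were scaling by library size, DESeq2 1.42.0, no filter, all 15 libraries, the 6 libraries alone, replicate blocks, leaving out each library, and, chosen after seeing the data, limma 3.58.1 on the deposited log2 values and leaving out all libraries numbered 2. Intervals and limits cover counting error only.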

Additional observations from a re-analysis of the deposited data

How the results depend on the processing

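Genes higher in PD032 numbered 3237, and between 2507 and 3241 with each library left out in turn. Lower genes numbered 2482, and 1873 to 2745 with each library left out. Genes at least 2-fold higher ranged from 1034 to 1186 and lower from 493 to 569 in those fits. With a replicate block, which took equal numbers as pairs, 4033 genes were lower in the 9 libraries and 4231 in the 6, and every gene named by the rule that had passed kept its call. Under limma on the deposited log2 values the genes at least 2-fold higher and lower were 365 and 185 (the cause was not tested). Within 1.5 times of the reported counts were library size alone (3538 higher and 2128 lower), DESeq2 (3086 and 2570), no filter (3443 and 2467), all 15 libraries (3929 and 2999), the 6 libraries alone (2874 and 2417) and the fit without the libraries numbered 2 (3903 and 3124).

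Of 124 genes named by the rule that passed, 115 passed in the same direction in all 18 other settings, none reversed, and 9 lost the call with 1 library left out: Rnf43, Tet2, Gbx2, Prc1, Anln, Ccnd2, Ocln, Nqo1 and Gata3. Folds were less stable than calls: under limma on the deposited log2 values 47 of the 124 folds were smaller by over 1.5 times, such as Foxd4 (log2 3.78), Spry4 (-2.84), Nt5e (-3.67) and Sp5 (-2.90). Six3 at 0 counts had a fitted log2 difference of 8.27, and 7.55 in DESeq2. Nanog, which did not pass, ranged in log2 difference from -0.10 to 0.19 with a library left out, and turned negative with the 6 libraries alone (-0.0048), without Aurka inh replicate 1 (-0.022) or 3 (-0.10), without combination replicate 1 (-0.0031) and without PD032 replicate 1 (-0.059). In the simulation, which changed 50 genes by 1.5-fold, 50% of them were missed, a share that need not hold for the data.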
